A study of Mus musculus with 17 samples.

Results

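The TFIIS family of transcription elongation factors comprises the genes Tcea1, Tcea2 and Tcea3 in the mouse, and its members were taken as the 3 rows with these symbols among the 20621 genes of the count table. All 3 were measured in all 17 libraries and all 3 passed the filter on low counts, with 15365 genes tested in all. When RNA polymerase II (RNAPII) moves backwards on its template, the 3′ end of the RNA leaves the active site and the enzyme stalls. TFIIS reaches into the polymerase with the acidic loop of its C-terminal zinc ribbon and stimulates the polymerase to cleave its own transcript, after which elongation resumes. Tcea1 is the broadly expressed form, Tcea2 is known for its abundance in testis, and Tcea3 is expressed in a restricted set of tissues and in mouse embryonic stem (ES) cells.

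The cells were E14 mouse ES cells that were either WT or RNAPII-mut, a line with a slowly elongating RNAPII, called mutant from here on. All groups grew without feeders in medium with 10% serum and 1000 U/mL LIF, a cytokine that sustains pluripotency. The day 0 groups received nothing else, and 2i was added to the others for 1, 2 or 7 days. In this medium 2i was 1 uM PD0325901, a MEK inhibitor, together with 3 uM CHIR99021, a GSK3 inhibitor, and it drives the cells towards the naive state. Each combination of genotype and day had 2 libraries of total RNA, except the mutant at day 1 with 3. The labels do not say whether these were separate cultures, so that p-values measure the spread between libraries, which may be technical, and the mutation cannot be told apart from other differences between the lines.

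Library totals lay between 47350441 and 56138844 counts. The 4 core pluripotency transcripts Pou5f1, Sox2, Sall4 and Lin28a summed to between 2075 and 3428 CPM (counts scaled by TMM to a common library size) in every library. The summed naive markers, 12 in number, lay between 2038 and 3366 CPM at day 0 and between 5027 and 6171 CPM at day 7. WT replicate 1 of day 0 and of day 1 stood apart, with summed mesoderm and stromal markers of 1205 and 1510 CPM against 190 to 419 CPM in the other 15 libraries. The results below are given with and without this pair where that changes a call.

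The 3 genes lie on different chromosomes, all on the plus strand of GRCm38, the assembly also called mm10. Tcea1 (ENSMUSG00000033813.15) spans chr1:4857814-4897909, Tcea2 (ENSMUSG00000059540.15) spans chr2:181680310-181688071, and Tcea3 (ENSMUSG00000001604.14) spans chr4:136247729-136274898. Their coding sequences are 903, 897 and 1041 bases long, and any pair of them aligned with 69.6 to 69.7% identical bases. Coding stretches of 60 bases were compared in frame and only where they crossed no exon boundary, with Tcea2 and Tcea3 each matched to Tcea1. The stretch most alike in all 3 among those compared is shown. It codes for part of the zinc ribbon that acts in the polymerase, and it bears on how far the reads of the 3 genes can be told apart. It lies in exon 9 of Tcea1 (chr1:4894946-4895005), exon 9 of Tcea2 (chr2:181687626-181687685) and exon 10 of Tcea3 (chr4:136273656-136273715), and capitals mark the 44 bases that are identical in all 3.
Tcea1: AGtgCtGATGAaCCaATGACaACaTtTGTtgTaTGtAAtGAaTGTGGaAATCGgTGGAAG
Tcea2: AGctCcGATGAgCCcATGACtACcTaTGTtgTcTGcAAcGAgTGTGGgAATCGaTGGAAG
Tcea3: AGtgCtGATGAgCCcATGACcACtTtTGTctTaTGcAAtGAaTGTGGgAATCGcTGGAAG
Over these 60 bases Tcea2 shares 46 and Tcea3 shares 51 with Tcea1. The differing bases are scattered, so that no long identical run exists within these 60 bases. The longest run shared by any pair over the whole coding sequence was 26 bases, between Tcea2 and Tcea3.

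The family members therefore share no stretch of 50 bases with each other, but Tcea1 shares many with other genes. Of the 2967 stretches of 50 bases in Tcea1 transcripts, 791 (26.7%) also occur in transcripts of other genes, 627 of them in the processed pseudogene Tcea1-ps1. None of the 2836 such stretches in Tcea2 and none of the 1398 in Tcea3 occur elsewhere. How reads with several matches were counted is not given in the sources used here, and the values of Tcea1 are uncertain to that extent. No annotated gene overlaps Tcea2 or Tcea3. Tcea1 overlaps Gm37988 (chr1:4807892-4886770), annotated as protein coding on the same strand, whose transcripts hold 153 of the shared stretches, and the processed pseudogene Gm6104 on the opposite strand. Neither of these is in the count table.

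Tcea3 was the most abundant TFIIS transcript in these ES cells when counts were set against gene length. As TPM (counts divided by the summed exon length of each gene and scaled to a common total), Tcea3 ranged from 84.9 to 525 over the 17 libraries, Tcea1 from 49.5 to 131 and Tcea2 from 5.26 to 19.8. Tcea3 exceeded Tcea1 in 16 of 17 libraries, all but mutant day 7 replicate 1, and Tcea1 exceeded Tcea2 in 17 of 17. The order of Tcea3 and Tcea1 is subject to the uncertainty in the values of Tcea1 given above. Averaged over all libraries, the TPM of Tcea3 was above that of 95.9% of the genes with an annotated length, that of Tcea1 above 89.5% and that of Tcea2 above 59.5%. With the median transcript length of each gene instead, Tcea3 exceeded Tcea1 in 17 of 17 libraries.

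**Figure D1:**
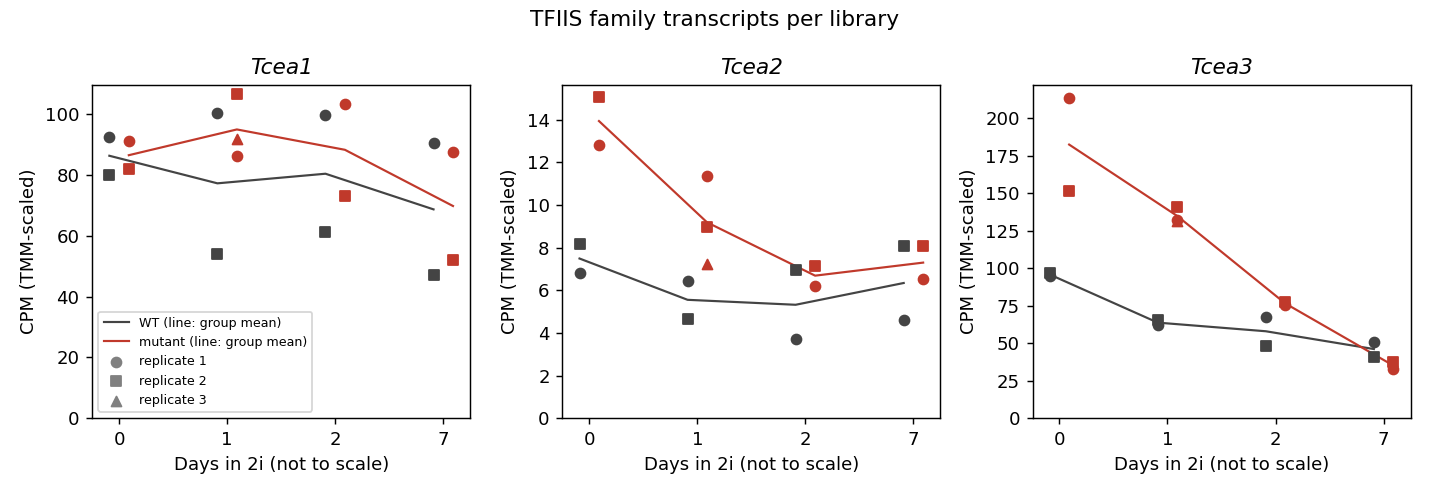
CPM of Tcea1, Tcea2 and Tcea3 (vertical axes, each from 0) in each of the 17 libraries against days in 2i, spaced evenly; grey is WT, red is mutant, the marker shape gives the replicate number and lines join group means. Tcea3 starts at 152 and 213 CPM in the mutant against 94.7 and 96.9 in WT and ends below WT at day 7, whereas Tcea1 shows no separation of the genotypes.

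Tcea3 differed between the genotypes and fell with 2i in both of them. In WT it measured 94.7 and 96.9 CPM at day 0, 62.2 and 65.2 at day 1, 67.7 and 48.2 at day 2, and 51.1 and 41.1 at day 7. In the mutant it measured 213 and 152 CPM at day 0, 132, 141 and 131 at day 1, 75.3 and 77.7 at day 2, and 32.7 and 37.5 at day 7. On each of the 4 days the libraries of one genotype lay wholly to one side of the other, with the mutant above WT at days 0, 1 and 2 and below it at day 7. With so few libraries a group, such a separation often arises without a difference, and how many of all genes separated was not counted. The mean level in the mutant was 182 ± 43.4 CPM at day 0 (SD, n = 2) and 35.1 ± 3.37 at day 7 (SD, n = 2). In WT the corresponding means were 95.8 ± 1.53 and 46.1 ± 7.07 CPM (SD, n = 2 each).

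Ordered by mean, Tcea3 was highest in the mutant at day 0, followed by the mutant at day 1, WT at day 0, the mutant at day 2, WT at day 1, WT at day 2, WT at day 7 and the mutant at day 7. Neighbours in this order overlapped only between WT days 1 and 2 and between WT days 2 and 7, which is a description of few libraries and no test. Fold changes below come from 1 edgeR quasi-likelihood fit to all 17 libraries, in which the groups share an estimate of the spread, with p-values adjusted by Benjamini-Hochberg over the 15365 genes of a comparison and an adjusted p under 0.05 counted as a call.

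Of the 3 family members, Tcea3 alone was called between the genotypes at any single day, and only at day 1. There it was 2.12-fold higher in the mutant (log2 1.08, SE 0.189, adjusted p = 0.0284, 95% interval 0.67 to 1.49), in a comparison that called 0.417% of all genes. Its day 1 level was 135 ± 5.34 CPM in the mutant (SD, n = 3) and 63.7 ± 2.12 CPM in WT (SD, n = 2). The day 1 call is narrow: it was lost when WT replicate 1 of days 0 and 1 was left out (1.05, adjusted p = 0.133), when the fit held only the groups compared (1.07, adjusted p = 0.164), with the replicate number as a block (1.10, adjusted p = 0.0502) and when any 1 of 9 libraries was left out, with adjusted p from 0.0213 to 0.162 over the 17 omissions. Those 9 were the 5 day 1 libraries, both mutant day 2 libraries and both mutant day 7 libraries. The log2 difference stayed between 1.05 and 1.12 in all 17.

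At day 0, before any inhibitor, Tcea3 was 1.90-fold higher in the mutant (log2 0.93, SE 0.202) but missed the threshold with an adjusted p of 0.0641 by edgeR, where 0.28% of all genes were called. It passed with the WT replicate number as a term (0.93, adjusted p = 0.0174) and with DESeq2 (0.92, adjusted p = 0.00179). At day 2 the difference was log2 0.40 (SE 0.201, adjusted p = 0.868) and at day 7 it was -0.39 (SE 0.201, adjusted p = 0.576), and none of the 3 members was called on either day. These comparisons called 0.0716% and 0.0976% of all genes. At days 2 and 7 the 95% intervals, -0.03 to 0.83 and -0.83 to 0.04, include 0.

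Averaged over the 4 days, Tcea3 was 1.42-fold higher in the mutant (log2 0.50, SE 0.0985, adjusted p = 0.00671). It was called whichever of the 17 libraries was left out, with adjusted p up to 0.0258. This comparison called 12.8% of all genes, 5.35% higher and 7.49% lower in the mutant, and the 1 member called of 3 is to be read against that share. The average also joins days whose differences have opposite signs for Tcea3.

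**Figure D2:**
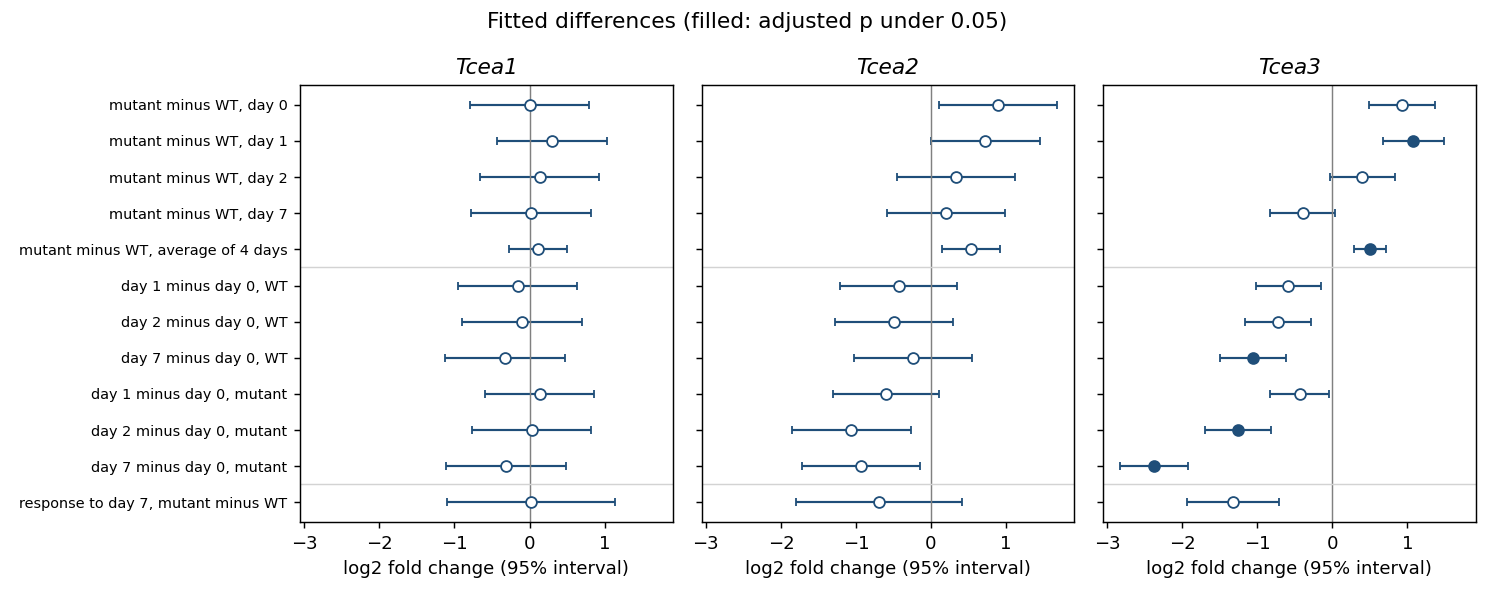
Fitted log2 fold changes (horizontal axis, points) with 95% intervals (bars) for each family member, by genotype at each day and on average, by day within each genotype, and for the difference between the genotypes in the day 7 response. Filled points are called: for Tcea3 these are the genotype differences at day 1 and on average, day 7 in WT, and days 2 and 7 in the mutant, and no point is filled for Tcea1 or Tcea2.

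With days in 2i, Tcea3 fell 2.08-fold in WT by day 7 (log2 -1.05, SE 0.202, adjusted p = 0.00631), where 12.7% of all genes were called and 6.1% were lower. In the mutant it fell 2.38-fold by day 2 (log2 -1.25, SE 0.203, adjusted p = 0.00689), where 2.92% of all genes were called. By day 7 it had fallen 5.19-fold in the mutant (log2 -2.38, SE 0.211, adjusted p = 5.42e-05), where 14.2% were called and 6.96% were lower. All day comparisons of a genotype share its day 0 libraries, and the comparison of genotypes at day 0 uses the same libraries again. The 2 mutant day 0 libraries, at 213 and 152 CPM, differed by 1.41 times, as did the 2 of WT day 2.

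The mutant day 7 fall was called whichever library was left out (adjusted p from 4.89e-05 to 0.00219). The mutant day 2 fall was lost without mutant day 0 replicate 1 (-0.96, adjusted p = 0.135) and without mutant day 2 replicate 1 or 2 (adjusted p = 0.0700 and 0.0753). The WT day 7 fall was lost without WT day 7 replicate 2 (-0.90, adjusted p = 0.0560) and in a fit of the compared groups alone (-1.07, adjusted p = 0.0916). In bulk RNA a fall of this kind cannot separate fewer cells with the transcript from less transcript per cell.

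The earlier steps were smaller. After 1 day, the log2 change was -0.59 in WT (SE 0.201, adjusted p = 0.364) and -0.44 in the mutant (SE 0.181, adjusted p = 0.306), with 0.202% and 1.41% of all genes called. After 2 days in WT it was -0.72 (SE 0.201, adjusted p = 0.0787), with 2.16% of all genes called, and it passed with the WT replicate number as a term (-0.74, adjusted p = 0.0251) and with DESeq2 (-0.74, adjusted p = 0.0127). In each of these the edgeR test as reported did not pass. The day 0 libraries lay wholly above the later ones, which with so few libraries adds no support to the test, and the share of all genes that did so was not counted. Between days 2 and 7 the mutant declined by log2 -1.12 (SE 0.203, adjusted p = 0.0571, 0.104% of all genes called), and this passed under several of the alternative settings given in the closing section. Between days 1 and 2, when 0% of all genes were called in either genotype, the log2 change was -0.82 in the mutant (SE 0.187, adjusted p = 0.496) and -0.14 in WT (SE 0.2, adjusted p = 1). In WT the change from day 2 to day 7 was -0.33 (SE 0.201, adjusted p = 1), with 0.00651% of all genes called.

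Whether Tcea3 responded differently in the genotypes was tested as the difference of the responses. By day 7 the response was more negative in the mutant by log2 -1.32 (SE 0.285, 95% interval -1.94 to -0.71), with an unadjusted p of 0.000461 and an edgeR adjusted p of 0.352. No gene passed in this comparison with edgeR (0% of 15365), while DESeq2 gave Tcea3 -1.31 with an adjusted p of 0.00805. The difference in response was 0.15 by day 1 and -0.53 by day 2 (adjusted p = 1 for each). Its test of difference thus depended on the tool, and the direction at day 7 was negative under every alternative, from -1.55 to -1.02 when 1 library was left out.

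Levels of Tcea3 are set here beside the mesoderm and stromal transcripts of the pair of WT libraries that stood apart, and a link between them was not tested. WT day 0 replicates 1 and 2 had 94.7 and 96.9 CPM of Tcea3 beside 1205 and 357 CPM of the 12 summed mesoderm and stromal markers. WT day 1 replicates 1 and 2 had 62.2 and 65.2 CPM of Tcea3 beside 1510 and 399.9 CPM. None of the 12 markers was at 0 in this pair, nor in WT replicate 1 of days 2 and 7, and 1 or 2 were at 0 in each of the other libraries. The summed trophoblast markers, 9 in number, were 691 and 1393 CPM in the same pair. Elsewhere they were at most 415 CPM, in WT day 2 replicate 1. Primitive endoderm markers, 12 in number, summed to between 524 and 1557 CPM in WT and between 263 and 671 CPM in the mutant, and their part in the genotype difference was not tested.

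Tcea2 was the scarce member and was called in no comparison, though its values ran in the same direction as those of Tcea3 at days 0 and 1. It measured 6.80 and 8.17 CPM at day 0 in WT and 12.8 and 15.1 in the mutant. At day 1 it measured 6.43 and 4.67 CPM in WT and 11.4, 8.95 and 7.22 in the mutant. At day 2 it measured 3.70 and 6.94 CPM in WT and 6.21 and 7.16 in the mutant, and at day 7 4.62 and 8.05 in WT and 6.50 and 8.08 in the mutant. The genotypes did not overlap at days 0 and 1 and overlapped at days 2 and 7, and the share of all genes without overlap was not counted.

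The genotype difference of Tcea2 was log2 0.90 at day 0 (SE 0.364, adjusted p = 0.309) and 0.72 at day 1 (SE 0.338, adjusted p = 0.349). On average over the 4 days it was 0.54 (SE 0.178, adjusted p = 0.0656), close to the size of the Tcea3 difference but with a wider error. In the mutant, Tcea2 was lower than at day 0 by log2 -1.06 at day 2 (SE 0.365, adjusted p = 0.158) and by -0.93 at day 7 (SE 0.364, adjusted p = 0.107). In WT the day 7 difference was -0.24 (SE 0.362, adjusted p = 0.69, 95% interval -1.02 to 0.54). This interval leaves room for a fall in WT as large as the one measured in the mutant. DESeq2 passed the average, the mutant day 2 and the mutant day 7 differences, with adjusted p of 0.0209, 0.0441 and 0.0443.

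Tcea1, the broadly expressed form, was called in none of the 18 comparisons. In WT it measured 92.6 and 80.2 CPM at day 0, 101 and 54.1 at day 1, 99.7 and 61.3 at day 2, and 90.5 and 47.1 at day 7. In the mutant it measured 91.2 and 82.0 CPM at day 0, 86.5, 107 and 92.0 at day 1, 103 and 73.3 at day 2, and 87.5 and 52.2 at day 7. All 8 groups overlapped their neighbours when ordered by mean. The genotype difference was log2 0.00 at day 0, 0.30 at day 1, 0.14 at day 2 and 0.02 at day 7, with SE of 0.339 to 0.368 and adjusted p of at least 0.753. The sign at day 0 turned under other scalings, from 0.00 to -0.03, and the 95% interval of the average difference ran from -0.28 to 0.50.

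Within WT, Tcea1 was higher in replicate 1 than in replicate 2 on 4 of 4 days, by 1.16 to 1.92 times. Primitive endoderm markers summed to 640, 870, 524 and 676 CPM in the replicate 1 libraries of days 0, 1, 2 and 7 and to 1225, 1271, 1478 and 1557 CPM in the replicate 2 libraries, and their part in the spread of Tcea1 was not tested. In the mutant Tcea1 was higher in replicate 1 on 3 of 4 days. By day 7 the log2 change of Tcea1 was -0.33 in WT (adjusted p = 0.58) and -0.31 in the mutant (adjusted p = 0.638).

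**Figure D3:**
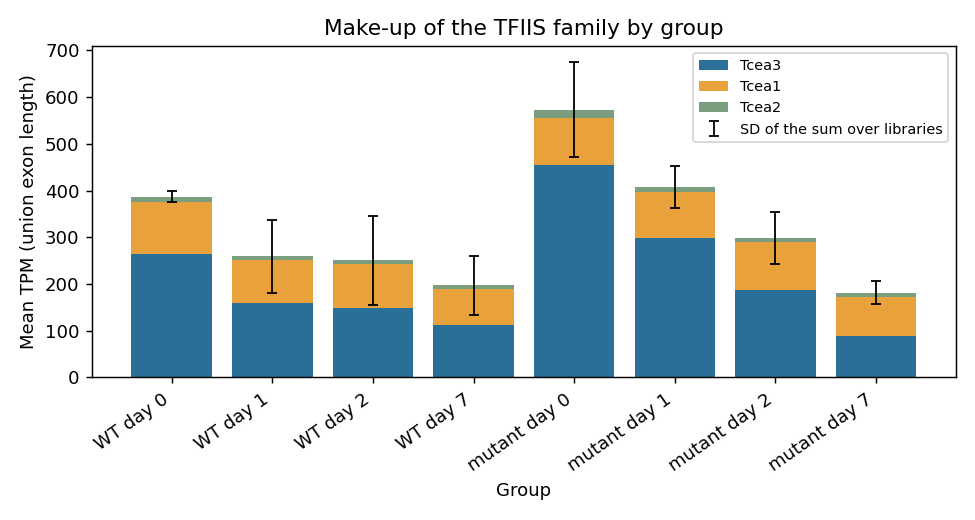
Mean TPM of the 3 family members stacked by group (vertical axis from 0), with the SD of the family sum over the libraries of each group as error bars. The sum falls from 387 to 197 in WT and from 574 to 182 in the mutant between days 0 and 7, and the Tcea3 share shrinks.

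The make-up of the family shifted with the level of Tcea3. The 3 genes together summed to 387 ± 12.1 TPM in WT at day 0 and 574 ± 102 in the mutant (SD, n = 2 each), and to 197 ± 63.5 and 182 ± 24.4 TPM at day 7 (SD, n = 2 each). Tcea3 made up 68.6, 62.9, 59.3 and 57.4% of this sum in WT at days 0, 1, 2 and 7. In the mutant its share was 79.1, 73.4, 63.4 and 49.8% on the same days. At day 7 the Tcea3 share was 42.7 and 56.9% in the mutant libraries and 53.5 and 61.3% in those of WT, so that the genotypes overlapped. Tcea1 held 17.7 ± 2.20% of the family sum in the mutant at day 0 and 44.8 ± 11.4% at day 7 (SD, n = 2 each). Its own level was not called as changed. The share of Tcea2 lay between 2.59 and 5.37% in all groups. With the median transcript length, the Tcea3 share in the mutant was 81.5% at day 0 and 54.7% at day 7. These shares are descriptions without a test.

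The members did not vary as 1 group across libraries. Over the 17 libraries, which share genotypes, days and replicates, Pearson's r of log2 CPM was 0.583 between Tcea2 and Tcea3, 0.498 between Tcea1 and Tcea3, and -0.013 between Tcea1 and Tcea2. Similar genes were sought among 10073 genes with a mean of at least 5 CPM, with predicted genes and clone-type symbols left out. Those most like Tcea3 were Nolc1 (r = 0.960), Isyna1 (r = 0.955), Bzw2 (r = 0.951), Hsd17b14 (r = 0.941) and Zscan10 (r = 0.938). Nolc1 is a nucleolar phosphoprotein, Isyna1 makes inositol phosphate from glucose 6-phosphate, and Zscan10 is a zinc finger protein of ES cells. Over the 8 group means Bzw2 ranked the first, with r = 0.993.

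The match with Isyna1 can be read in its levels. Isyna1 fell from 254 ± 1.21 CPM at day 0 to 124 ± 2.34 at day 7 in WT (SD, n = 2 each) and from 368 ± 42.7 to 107 ± 13.4 CPM in the mutant (SD, n = 2 each). Its mean thus stood above WT in the mutant at day 0 and below it at day 7, as that of Tcea3 did. Isyna1 was picked for its likeness to Tcea3 in these same libraries, so that this adds no support. The genotype difference of Tcea3 was called on neither of these days. The genes most like Tcea1 were Kif2a (r = 0.922), Usp16 (r = 0.917), Psip1 (r = 0.904), Capza1 (r = 0.901) and Adamts3 (r = 0.899). For Tcea2 they were Marveld1 and Rltpr (r = 0.876 each), Hapln4 (r = 0.875), Sipa1 (r = 0.870) and Emilin1 (r = 0.867). None of the 15 genes was on more than 1 of the 3 lists.

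The genes near each member were examined within 250 kb. Beside Tcea3, 8 genes were tested, and 0 of them were called between the genotypes in any comparison. Of all genes, 0.0716 to 0.417% were called at single days and 12.8% on average, and 0 of so few genes cannot be told apart from these shares. In the mutant at day 7, 2 of the 8 were called lower than at day 0, as Tcea3 was, beside 6.96% of all genes: Asap3, which ends 2513 bases before Tcea3, fell 1.81-fold (adjusted p = 0.0367), and E2f2, a transcription factor of the cell cycle, fell 3.24-fold (adjusted p = 0.0209). Rpl11, Id3, Zfp46, Hnrnpr, Htr1d and Luzp1 were not called there. In WT at day 7 and in the mutant at day 2, where Tcea3 was also called lower, 0 of the 8 were called lower. Of all genes, 6.1% were called lower in the first and 2.92% were called in either direction in the second. Asap3 measured 26.0 and 26.9 CPM in the mutant at day 0 and 13.6 and 15.7 CPM at day 7. Beside Tcea2, 13 genes were tested, and 4 of them were called higher in the mutant on average and 0 lower, beside 5.35% of all genes called higher. These were Rgs19 (1.42-fold, adjusted p = 0.00417), Zfp512b (1.37-fold, adjusted p = 0.0205), Samd10 (1.74-fold, adjusted p = 0.00113) and Sox18 (2.94-fold, adjusted p = 0.00918). Sox18 was scarce, with group means of 0.306 to 1.25 CPM in WT and 0.865 to 2.98 CPM in the mutant. Tcea2 itself, at 1.45-fold, did not pass. Rgs19 ends 348 bases from Tcea2 on the opposite strand, and the strand setting of the counting is not given in the sources used here. Beside Tcea1, 1 of 4 genes tested, Atp6v1h, was called higher on average (1.24-fold, adjusted p = 0.0483), beside the same 5.35% of all genes.

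**Figure D4:**
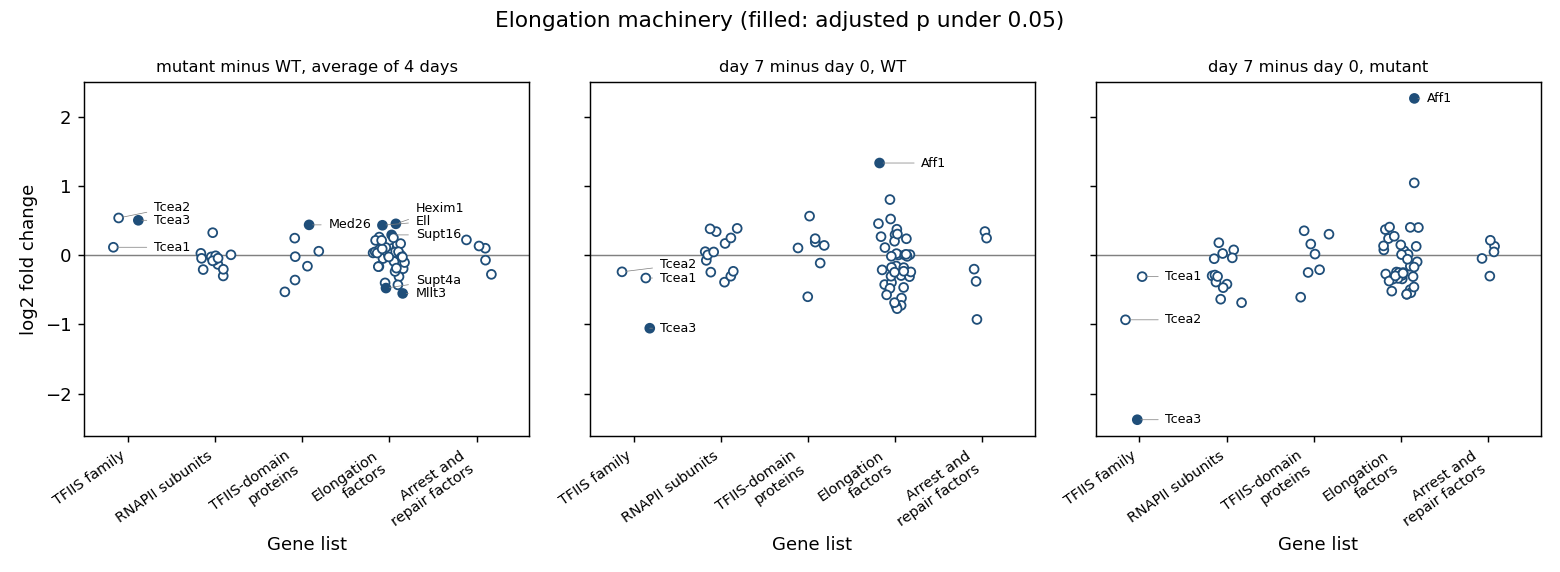
Log2 fold changes (vertical axis) of the TFIIS family and of 4 lists of elongation machinery genes (columns, points spread sideways for display) for mutant minus WT averaged over 4 days and for day 7 minus day 0 in each genotype. Filled points are called; Tcea3 lies lowest of the 66 genes in both day 7 panels and Aff1 is the one other called gene there.

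The rest of the elongation machinery was set beside the family as 4 lists: 13 RNAPII subunits, 7 proteins with a domain related to TFIIS, 38 elongation factors and 5 factors for arrested polymerases. None of these 63 genes was called between the genotypes at day 0, 1, 2 or 7, where 0.28, 0.417, 0.0716 and 0.0976% of all genes were called, and 0 of 63 is near these shares. Polr2a, the gene of the largest RNAPII subunit, differed by log2 -0.13 on average (SE 0.145, adjusted p = 0.614). Its count does not check the mutant label, since an altered residue need not change it. The median log2 difference at day 1, where Tcea3 was called, was 0.05 for the subunits, 0.04 for the TFIIS-domain proteins, 0.00 for the elongation factors and 0.00 for the arrest factors, against -0.05 over all genes tested.

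Averaged over the 4 days, 0 of 13 RNAPII subunits and 0 of 5 arrest factors were called. Of the 38 elongation factors, 3 were called higher in the mutant and 2 lower, which is near the 12.8% of all genes called in this comparison. The higher ones were Hexim1, an inhibitor of the kinase P-TEFb (log2 0.45, adjusted p = 0.0145), Supt16, a subunit of the histone chaperone FACT (0.29, adjusted p = 0.0131), and Ell, of the super elongation complex (0.43, adjusted p = 0.0248). The lower ones were Supt4a, a subunit of DSIF (-0.47, adjusted p = 0.0255), and Mllt3, of the super elongation complex (-0.55, adjusted p = 0.0367). Med26, a Mediator subunit with a TFIIS N-terminal domain, was higher (0.44, adjusted p = 0.00922) as 1 of 7 in its list. Without WT replicate 1 of days 0 and 1, fewer elongation factors were called, and the share of all genes called in that fit is not given here.

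By day 7 of 2i, 1 of the 63 machinery genes was called in each genotype, beside 12.7% of all genes in WT and 14.2% in the mutant, and it was Aff1, a scaffold of the super elongation complex. Aff1 rose 2.52-fold in WT (adjusted p = 0.0261) and 4.81-fold in the mutant (adjusted p = 0.00144), opposite to Tcea3. Aff1 measured 55.1 ± 6.86 CPM in the mutant at day 0 and 265 ± 1.16 CPM at day 7 (SD, n = 2 each). The median day 7 change was log2 0.05 in WT and -0.30 in the mutant for the RNAPII subunits and -0.17 and -0.21 for the elongation factors, against -0.01 and 0 over all genes. Among the 63 genes and the 3 family members, Tcea3 had the lowest log2 change of the 66 in each genotype. Tceanc and Tceanc2, which carry the N-terminal and central parts of the TFIIS fold, were called in none of the genotype comparisons or day 7 comparisons.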

How the data were processed

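RNA-seq was analysed from 17 libraries in 8 groups of genotype and day. The authors deposited unnormalised read counts by gene symbol, made from reads aligned to mm10 with STAR, per the submitters' processing notes; the counting tool, annotation, strand setting and treatment of reads with several matches are not given in the sources used here. In each library 89 to 92.3% of the counts between 1 and 20 were even. No sample column was left unused. Differential expression used edgeR 4.0.16 (R 4.3.3): TMM scaling, filterByExpr (15365 of 20621 genes kept), 1 quasi-likelihood fit and 18 two-sided contrasts, with 9 residual degrees of freedom. SE is the log2 change over the square root of F. TPM used exon lengths of GENCODE M21, found for 20110 genes, as a description. The similar genes were the 5 highest r of log2 CPM with a prior count of 2, with predicted genes and clone-type symbols left out. Named machinery genes were those called in a genotype comparison or at day 7. The procedure was tested on simulated data. The members and gene lists were chosen with earlier results of these data known. Alternatives were DESeq2 1.42.0, 2 scalings, 2 filters, the compared groups alone, a replicate block, a term for the WT replicate series, a robust prior and omitted libraries. Same-numbered WT libraries deviated together from their group means (r = 0.24 to 0.74 over 6 pairs of days), which pairs them from the data and not from the labels. Where an omission leaves a group with 1 library, that library is assumed to vary like the others.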

Additional observations from a re-analysis of the deposited data

How the results depend on the processing

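The 3 genes were followed through 18 comparisons under 27 settings beside the main one, in 1455 refitted values. Of these, 1366 kept their direction and their side of the threshold, 17 lost a call, 26 gained one and 46 changed sign. Tcea1 and Tcea2 had no call in the main fit, so that the 17 lost calls could only be of Tcea3. Of the 46 changes of sign, 33 were of Tcea1. The average genotype difference and the mutant day 7 fall of Tcea3 were called under every setting run; the compared groups alone could not be set for the average, which uses all groups. The cause of each change was not tested.

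For Tcea3, the mutant change from day 2 to day 7 passed with upper quartile scaling (-1.17, adjusted p = 0.0423), a filter of 1 CPM in at least 4 libraries (-1.13, 0.0473), a term for the WT replicate series (-1.12, 0.00934), the compared groups alone (-1.12, 0.0126), DESeq2 (-1.13, 5.82e-05) and without WT replicate 1 of days 0 and 1 together (-1.12, 0.0429). The genotype difference at day 1 was lost with the compared groups alone (1.07) and without that pair (1.05). At day 0 it passed with the WT series term (0.93, adjusted p = 0.0174) and DESeq2 (0.92). The WT day 2 fall passed with the WT series term (-0.74, 0.0251) and DESeq2 (-0.74, 0.0127), and the WT day 7 fall was lost with the compared groups alone (-1.07). DESeq2 also passed the mutant change from day 1 to day 2 (-0.83, 0.0149) and the difference in day 7 response (-1.31).

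For Tcea2, the average genotype difference passed with the WT series term (0.55, 0.0232) and DESeq2 (0.53). The mutant day 7 fall passed with the WT series term (-0.93, 0.0481), the compared groups alone (-0.92, 0.00602) and DESeq2 (-0.95), and the mutant day 2 fall with the compared groups alone (-1.06, 0.0213) and DESeq2 (-1.07). For Tcea1, the genotype difference at day 0 turned with RLE scaling (-0.0103), upper quartile scaling (-0.0337), the filter of 1 CPM (-0.0179), DESeq2 (-0.0103) and the WT series term (-0.0126). Without WT replicate 1 of days 0 and 1 together, Tcea1 turned from day 0 to 2 in WT (0.0073) and in the day 7 response difference (-0.0884), and Tcea2 from day 1 to 2 in WT (0.19) and in the day 1 response difference (0.20).

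With the replicate block, the Tcea3 genotype difference at day 1 was 1.10 (adjusted p = 0.0502, no longer past the threshold) and the Tcea2 average was 0.59 (0.0431, past it), and no other call of the family changed. Deviations from the group means of same-numbered libraries correlated over 0.1 in 6 of 6 pairs of days in WT. They correlated at -0.34 to 0.17 in the mutant (1 of 6 over 0.1) and at -0.35 to 0.50 between genotypes (10 of 16). The numbers thus pair the WT libraries with each other. Across genotypes the values were mixed. Replicate 1 of mutant days 2 and 7 correlated with replicate 1 of the WT days at 0.14 to 0.50. For mutant day 0 this was 0.07 to 0.18, and for mutant day 1 it was -0.35 to -0.04. Whether the numbers pair libraries across genotypes was not tested.

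Leaving out each library in turn gave these ranges of log2 change. For Tcea3 they were 1.05 to 1.12 for the genotype difference at day 1, -1.22 to -0.90 for WT day 7 minus 0, -1.48 to -0.96 for mutant day 2 minus 0, -1.22 to -1.03 for mutant day 7 minus 2, -0.40 to 0.0892 for WT day 2 minus 1 and -0.0735 to 0.43 for the day 1 response difference. For Tcea2 they were 0.44 to 0.67 for the average genotype difference, -0.0536 to 0.85 at day 2 and -0.14 to 0.66 at day 7, -0.69 to 0.11 for WT day 7 minus 0, -0.59 to 0.32 for WT day 2 minus 1, -0.20 to 0.78 for WT day 7 minus 2, -0.0378 to 0.27 for mutant day 7 minus 2 and -0.38 to 0.078 for the day 1 response difference. For Tcea1 the genotype difference ranged from -0.0957 to 0.11, -0.0786 to 0.81, -0.17 to 0.53 and -0.40 to 0.57 at days 0, 1, 2 and 7. Its changes against day 0 ranged from -0.67 to 0.22, -0.49 to 0.21 and -0.88 to 0.0694 in WT at days 1, 2 and 7, and from -0.24 to 0.26 and -0.73 to 0.0174 in the mutant at days 2 and 7. Its later steps ranged from -0.33 to 0.57 for WT day 2 minus 1, -0.78 to 0.17 for WT day 7 minus 2 and -0.37 to 0.12 for mutant day 2 minus 1, and its response differences from -0.0834 to 0.81, -0.18 to 0.52 and -0.40 to 0.57 at days 1, 2 and 7.

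Over these settings the number of all genes called between genotypes ran from 1 to 701 at day 0 and from 5 to 769 at day 1 (43 and 64 in the fit reported). Tcea2 had 561 to 1463 counts summed over a group and Tcea1 7404 to 13654, with similar SE at day 0 (0.364 and 0.368).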
